A study of Homo sapiens with 12 samples.

Results

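The intervals described here are places in the genome of K562 cells that were listed as bound by TAL1, were not listed as bound by GATA1, and lay beside an interval that was. They were taken from the TAL1 list on chromosomes 1 to 22 and X by 2 conditions. An interval could overlap no interval of the GATA1 list, and the nearest GATA1 interval had to lie at most 1000 bp away, counted from edge to edge. In all, 343 intervals met both conditions, out of 1885 TAL1 intervals that overlapped no GATA1 interval, 8914 TAL1 intervals on these chromosomes and 24654 distinct intervals in both lists together. They are called adjacent TAL1-only intervals below, and the GATA1 interval closest to each is called its GATA1 neighbour. TAL1-only and GATA1-only name intervals in 1 list, and a shared interval is in both. These intervals were chosen by their gap and by their absence from the GATA1 list, so both are described without a test.

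K562 is an erythroleukemia line with erythroid features. The study used chromatin immunoprecipitation and sequencing (ChIP-seq) with antibodies to GATA1, TAL1, LDB1 and the histone mark H3K27ac in control cells and after knockdown of GATA1 or TAL1 by short hairpin RNAs delivered with lentiviral vectors. Of 12 libraries, the control GATA1 and control TAL1 libraries were used, 1 of each. The other 10, every knockdown library among them, were not analysed here. Chromatin was cut with micrococcal nuclease to the size of 1 or 2 nucleosomes, and 0.5 ng of precipitated DNA per library was amplified for 12 cycles. A size selection of 200 bp is given for both libraries. Many widths and gaps below are near or under that length, and its effect on them was not tested.

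GATA1 is a zinc finger protein that binds GATA motifs and is required for red cell and megakaryocyte development. TAL1 is a basic helix-loop-helix protein that pairs with E proteins such as TCF3 and binds E-box motifs. In erythroid cells both proteins meet in a complex that the adaptors LMO2 and LDB1 hold together, often on enhancers where an E-box lies a short step from a GATA motif. TAL1 can be recruited through GATA1 without contacting DNA itself, and it can also bind with other partners where GATA1 is absent. An interval with TAL1 alone, next to an interval with GATA1, is the arrangement described here.

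The lists give a chromosome, a start and an end for each interval, and no height, fold enrichment or summit. GATA1 signal below the calling threshold inside a TAL1-only interval was therefore not measured, and separate binding sites cannot be told apart from pieces of 1 enriched region. All intervals that overlapped between the lists had the same start and end in both, and partial overlaps numbered 0. Widths and edges therefore cannot be taken as separate measurements for each factor. The number of reads per library is unknown, and with 1 library per factor no value has a replicate error. Ranges in parentheses after a percentage are exact (Clopper-Pearson) 95% intervals with intervals as the units, and those after a median come from order statistics. They cover counting over these intervals only. Neighbouring intervals are not independent of each other. The genome sequence of build hg19 and a gene annotation for it were not used here, so no motif, sequence or gene is assigned to the positions.

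Adjacent TAL1-only intervals made up 18.2% (16.5 to 20.0%) of all TAL1-only intervals and 3.85% (3.46 to 4.27%) of all TAL1 intervals. The gap to the GATA1 neighbour had a median of 324 bp (285 to 373 bp), quartiles of 144 and 560 bp, and a range of 37 to 993 bp. The lower end of that range is also the smallest gap between any neighbouring intervals in the lists. A gap of at most 500 bp was found for 238 of the 343 (69.4%, 64.2 to 74.2%). Within the limit, short gaps were more frequent than long ones. There were 58 intervals at gaps of up to 100 bp, 51 at 101 to 200 bp, 50 at 201 to 300 bp, and 12 at 901 to 1000 bp. Measured between centres, the median distance was 625 bp (573 to 663.5 bp), and the TAL1-only interval, the gap and the neighbour together spanned a median of 902 bp. Other kinds of interval also had short gaps within the same limit. The median gap to the nearest other GATA1 interval was 250 bp (239 to 258 bp) for GATA1-only intervals and 283 bp (261 to 300 bp) for shared ones. From GATA1-only intervals to the nearest TAL1 interval it was 427 bp (394 to 458 bp).

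**Figure D1:**
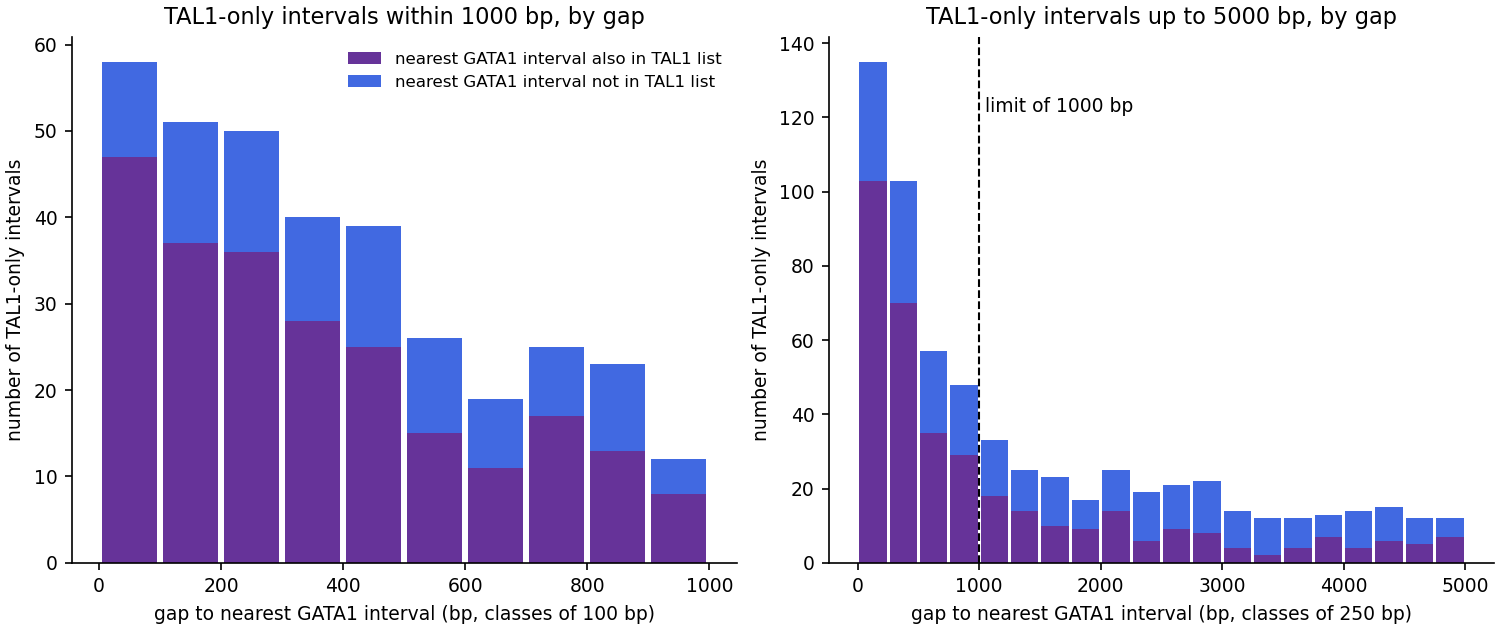
Numbers of TAL1-only intervals by the gap to the nearest GATA1 interval, in classes of 100 bp up to the limit (left) and of 250 bp up to 5000 bp (right, dashed line at the limit of 1000 bp). Purple marks a nearest GATA1 interval that is also in the TAL1 list and blue one that is not; the counts go from 135 in the first class of 250 bp to 48 in the last class inside the limit and 33 in the first class outside it.

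The limit of 1000 bp did not fall at a break in the distribution. From 1 to 250 bp there were 135 TAL1-only intervals, then 103, 57 and 48 in the following classes of the same size. Outside the limit the counts were 33, 25, 23 and 17 up to 2000 bp, and each of the 4 classes from 4001 to 5000 bp held 12 to 15. The 3 intervals just inside the limit were chr11:47293686-47293848 (gap 993 bp, width 163 bp), chr4:151935714-151935872 (991 bp, width 159 bp) and chr10:104747571-104747718 (983 bp, width 148 bp). The 3 just outside were chr4:6895411-6895610 (1009 bp, width 200 bp), chr10:13749182-13749415 (1011 bp, width 234 bp) and chr3:5022054-5022286 (1012 bp, width 233 bp). On each side of the limit, 1 of these 3 had a nearest GATA1 interval that was also a TAL1 interval.

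Most GATA1 neighbours were themselves TAL1 intervals. The neighbour was in the TAL1 list for 237 of the 343 (69.1%, 63.9 to 73.9%), while 30.9% (30.3 to 31.5%) of all GATA1 intervals were. The other 106 lay beside an interval with GATA1 alone, so that neither interval of the pair was in both lists. A shared interval could still lie close by, as in the site of chr5:10761323-10761497. Some neighbours served more than 1 interval, and among the 332 distinct neighbours 229 were in the TAL1 list (69.0%, 63.7 to 73.9%). Of the 7029 shared intervals in the genome, 6800 had no adjacent TAL1-only interval for which they were the closest GATA1 interval. TAL1 status of the neighbour was not part of the choice of intervals, but it comes from the same TAL1 library.

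GATA1 intervals near another GATA1 interval had a lower share as a whole. Of all GATA1 intervals, 25.5% had another GATA1 interval within 1000 bp, and the nearest of these was a TAL1 interval in 33.1% (31.9 to 34.4%) of 5814 cases. Starting from GATA1-only intervals it was a TAL1 interval in 16.5% (15.3 to 17.7%) of 3885 cases. Starting from shared intervals it was one in 66.6% (64.5 to 68.7%) of 1929 cases, and the interval around that value overlaps the one for adjacent TAL1-only intervals. In these counts a pair of GATA1 intervals that were each other's nearest enters from both ends.

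Along the gap, the values ran in opposite order for TAL1-only and GATA1-only intervals. At gaps of up to 100 bp the neighbour was a TAL1 interval for 47 of 58 adjacent TAL1-only intervals (81.0%, 68.6 to 90.1%). It was one for 36 of 50 at 201 to 300 bp (72%, 57.5 to 83.8%) and for 64 of 105 at 501 to 1000 bp (61.0%, 50.9 to 70.3%). For GATA1-only intervals beside a GATA1 interval the values at the same gaps were 7.95% (6.42 to 9.72%), 16.5% (13.4 to 20.0%) and 25.5% (22.8 to 28.3%). The ranges of the first and last class overlap for TAL1-only intervals and do not for GATA1-only intervals. The GATA1-only classes were larger, with 1094 and 997 intervals against 58 and 105, and also hold pairs counted from both ends. Neither order was tested. Beyond the limit, the nearest GATA1 interval of a TAL1-only interval was a TAL1 interval in 52.0% (41.7 to 62.2%) of 98 cases at over 1000 to 2000 bp. The value was 39.8% (32.8 to 47.1%) at over 2000 to 5000 bp and 31.8% (25.6 to 38.5%) at over 5000 to 10000 bp. Past 50 kb it was 32.3% (28.0 to 36.8%), near the share among all GATA1 intervals.

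**Figure D2:**
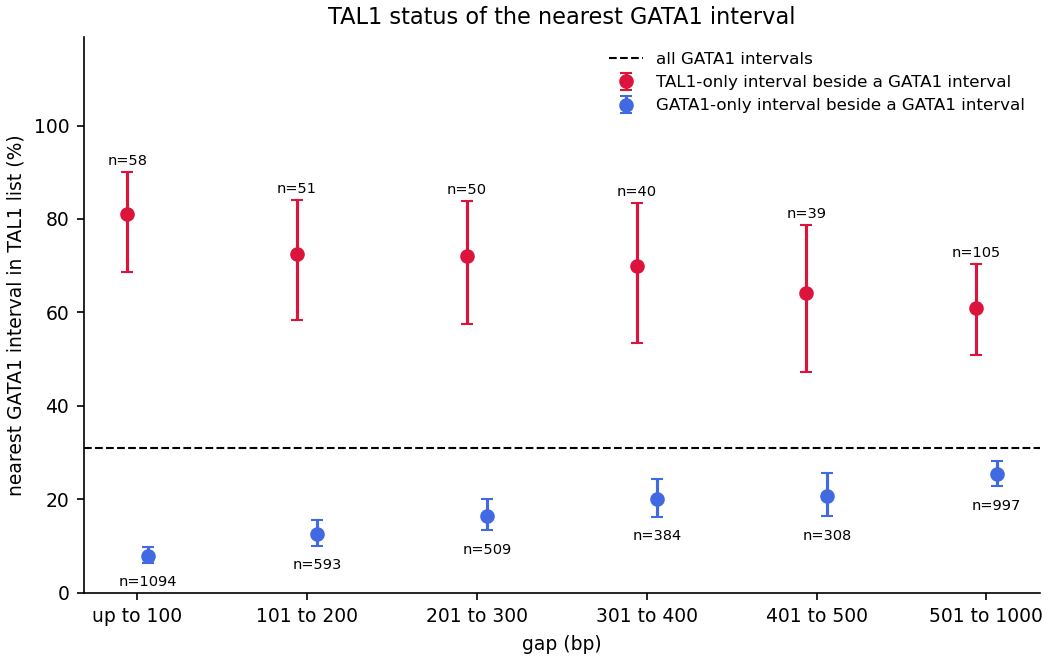
Percentage of nearest GATA1 intervals that are also in the TAL1 list, by gap, for TAL1-only intervals (red) and GATA1-only intervals (blue) beside a GATA1 interval within 1000 bp, with exact 95% intervals as bars and the number of intervals beside each point. The dashed line is the share among all GATA1 intervals, 30.9%. Every red point lies above it, from 81.0% to 61.0%, and every blue point below it, from 7.95% to 25.5%. Shared intervals beside a GATA1 interval, with 66.6% over all gaps up to 1000 bp, are not shown.

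Wider GATA1 intervals were more often TAL1 intervals throughout the list, so the shares were also taken within classes of width. Of neighbours 85 to 149 bp wide, 36.5% (23.6 to 51.0%) of 52 were in the TAL1 list, against 11.8% of all GATA1 intervals of that width. At 150 to 249 bp the values were 61.4% (50.1 to 71.9%) of 83 neighbours and 20.5% of all. At 250 to 399 bp they were 68.3% (58.3 to 77.2%) of 101 and 34.1%. Of the 96 neighbours at least 400 bp wide, 90 were TAL1 intervals (93.8%, 86.9 to 97.7%), against 45.7% of all GATA1 intervals that wide. GATA1 intervals within 1000 bp of another GATA1 interval had 19.1, 27.4, 37.9 and 50.4% in the same order of classes. These values lie above those of all GATA1 intervals. In each of these 4 width classes the share among neighbours was higher than both.

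Adjacent TAL1-only intervals were narrow. Their median width was 204 bp (188 to 217 bp), with quartiles of 131 and 294 bp and a range of 85 to 874 bp. TAL1-only intervals farther than 1000 bp from GATA1 had a median of 292 bp (282 to 299 bp), shared intervals 373 bp (368 to 379 bp) and GATA1-only intervals 264 bp (261 to 267 bp). Widths under 150 bp were found for 116 of the 343 (33.8%, 28.8 to 39.1%), against 11.5% (9.99 to 13.2%) of the farther TAL1-only intervals, 20.3% (19.6 to 20.9%) of GATA1-only intervals and 6.05% of shared intervals. The smallest width in the lists, 85 bp, was that of 14 adjacent intervals (4.08%, 2.25 to 6.75%) and of 1.62% (1.05 to 2.38%) of the farther ones. GATA1-only intervals had that width in 3.11% (2.85 to 3.40%) of cases, inside the range of the adjacent intervals. Only 34 were at least 400 bp wide (9.91%, 6.96 to 13.6%), against 22.5% (20.4 to 24.7%) of those farther away.

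Narrow width went with a close neighbour on either list. GATA1-only intervals within 1000 bp of another GATA1 interval had a median of 217 bp (211 to 222 bp), and those within 1000 bp of a TAL1 interval 202 bp (191 to 214 bp). Both are near the value of adjacent TAL1-only intervals. Along the distance to GATA1, the median width of TAL1-only intervals was 187 bp (138 to 213 bp) at gaps of up to 100 bp and 224 bp (185 to 268 bp) at 501 to 1000 bp. It was 237 bp (223 to 264 bp) at over 1000 to 2000 bp, 276 bp (248 to 291 bp) at over 2000 to 5000 bp and 314.5 bp (283 to 338 bp) at over 5000 to 10000 bp. Beyond 50 kb it was 298 bp (283 to 312 bp). Seen the other way, 39.5% (33.8 to 45.3%) of TAL1-only intervals of 85 to 149 bp were adjacent to a GATA1 interval, and 8.92% (6.26 to 12.2%) of those at least 400 bp wide.

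**Figure D3:**
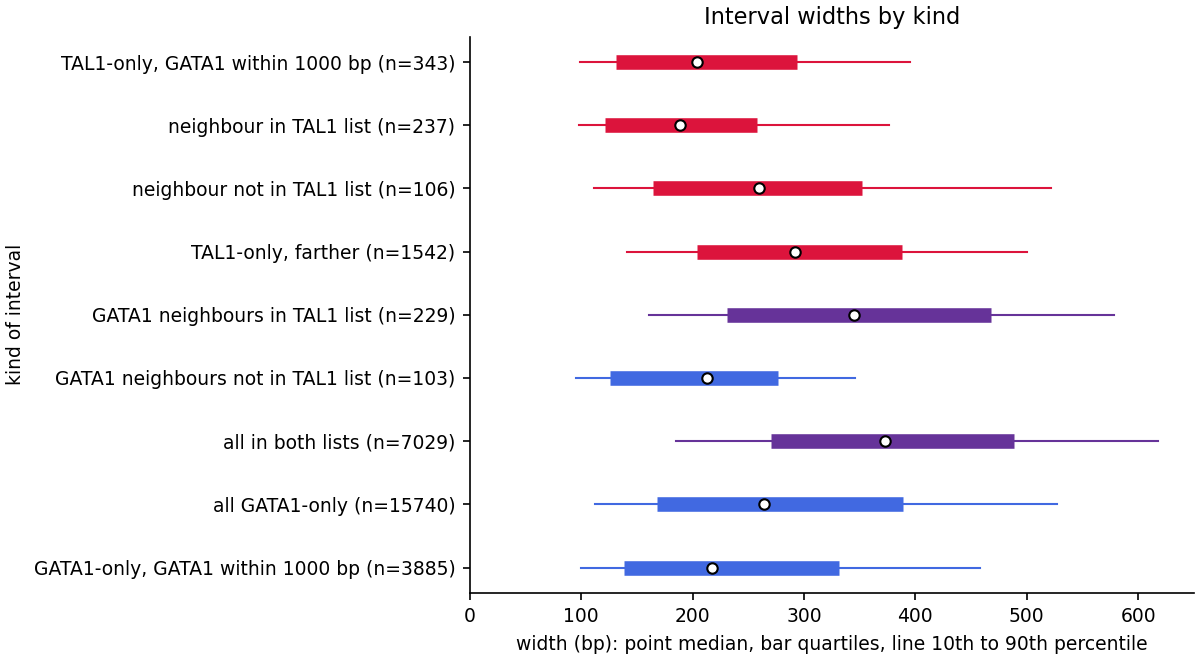
Widths in bp of adjacent TAL1-only intervals, their GATA1 neighbours and other kinds of interval, in red for TAL1 alone, purple for both lists and blue for GATA1 alone. Points are medians, bars span the quartiles and lines the 10th to 90th percentiles; the 343 adjacent TAL1-only intervals have a median of 204 bp and the 7029 shared intervals 373 bp.

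Width differed by the TAL1 status of the neighbour, on both sides of the pair. Adjacent intervals whose neighbour was a TAL1 interval had a median width of 189 bp (163 to 205 bp, n = 237), and those beside a GATA1-only interval 260 bp (211 to 287 bp, n = 106). The neighbours had the opposite order. Neighbours that were TAL1 intervals had a median of 345 bp (311 to 383 bp), against 373 bp for all shared intervals. Shared intervals within 1000 bp of another GATA1 interval had 317 bp (306 to 328 bp). The range of the neighbours overlaps that range and includes 373 bp. Neighbours that were not TAL1 intervals had 213 bp (184 to 242 bp), below the 264 bp of all GATA1-only intervals. GATA1-only intervals within 1000 bp of another GATA1 interval had 217 bp (211 to 222 bp), inside the range of these neighbours. The gap was shorter beside a TAL1 interval, with a median of 289 bp (250 to 349 bp) against 418.5 bp (320 to 485 bp), and these ranges overlap. Of the 34 adjacent intervals at least 400 bp wide, 14 had a TAL1 interval as neighbour (41.2%, 24.6 to 59.3%), against 93 of the 116 under 150 bp (80.2%, 71.7 to 87.0%). GATA1-only intervals beside a GATA1 interval had the same order at lower values. Their shares were 11% (8.61 to 13.8%) of 600 and 19.9% (17.6 to 22.4%) of 1135.

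Within pairs, the TAL1-only interval was the narrower one in 222 of 343 (64.7%, 59.4 to 69.8%). GATA1-only intervals beside a GATA1 interval, which had fewer shared neighbours, were narrower than it in 54.3% (52.7 to 55.8%) of 3885 cases. Where the neighbour was a TAL1 interval, the TAL1-only interval was narrower in 178 of 237 (75.1%, 69.1 to 80.5%). Over all 237 of these pairs, its width minus that of the neighbour had a median of -153 bp (-182 to -113 bp). Beside a GATA1-only neighbour the TAL1-only interval was narrower in 44 of 106 (41.5%, 32.0 to 51.5%). The median difference over all 106 was 34.50 bp (-2 to 79 bp), a range that includes 0. GATA1-only intervals whose nearest GATA1 interval was a shared one within 1000 bp were narrower than it in 78.0% (74.6 to 81.2%) of 641 cases, a range that overlaps that of the TAL1-only intervals beside shared neighbours. Where it was a GATA1-only one, they were narrower in 49.6% (47.8 to 51.3%) of 3244 cases. That range lies inside the one for TAL1-only intervals beside GATA1-only neighbours. Shared intervals were wider throughout the lists, and each has the same boundaries for both factors, so 1 width stands for both. The part of this in the difference within pairs was not tested.

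**Figure D4:**
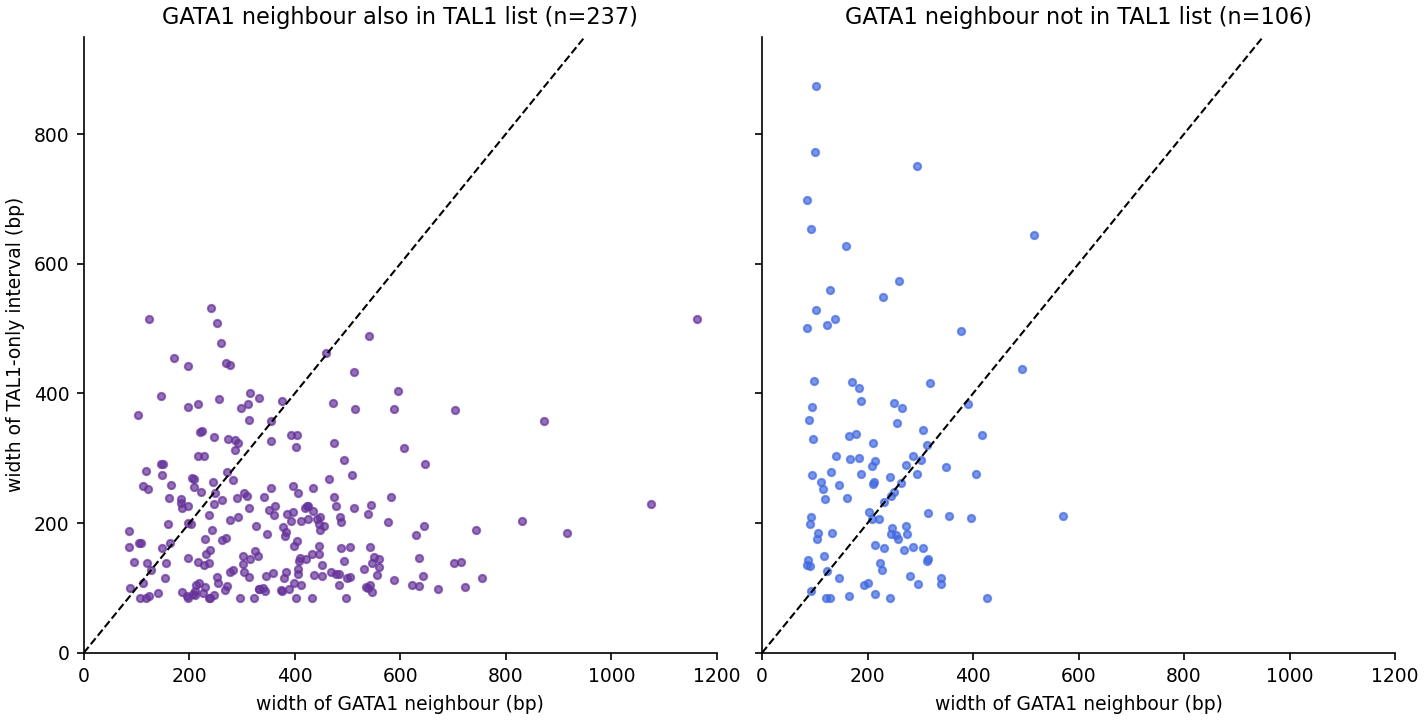
Width of each adjacent TAL1-only interval against the width of its GATA1 neighbour, in bp, for the 237 pairs whose neighbour is in the TAL1 list (left) and the 106 whose neighbour is not (right). The dashed line marks equal width; 178 points lie below it on the left and 44 on the right.

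Most adjacent TAL1-only intervals were in sites of 2 intervals. Joining intervals of either list across gaps of at most 1000 bp placed the 343 in 331 sites, of which 271 held 2 intervals (81.9%, 77.3 to 85.9%), 50 held 3, 9 held 4 and 1 held 5. A site of 1 shared interval and 1 TAL1-only interval was the most frequent form (192 sites, 58.0%), followed by 1 GATA1-only and 1 TAL1-only interval (79 sites, 23.9%). In sites of 3 or more intervals, the adjacent TAL1-only interval was first or last in 49 of 72 cases (68.1%, 56.0 to 78.6%), and GATA1-only intervals of the same sites were in 33 of 50 (66%, 51.2 to 78.8%). Sites spanned a median of 996 bp and at most 3109 bp. In 94 of the 331 sites (28.4%, 23.6 to 33.6%) both factors were listed without any shared interval. These 94 are 1.47% (1.19 to 1.79%) of the 6414 sites in the genome that held both factors. A site with a shared interval held an adjacent TAL1-only interval in 237 of 6320 cases (3.75%, 3.30 to 4.25%). A site with GATA1-only intervals and no shared one did so in 94 of 13314 (0.706%, 0.571 to 0.863%).

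GATA1 intervals within 1000 bp on both sides were found for 11 of the 343 (3.21%, 1.61 to 5.67%). Both flanks were TAL1 intervals in 2 of these, 1 flank in 6 and neither in 3. The nearest GATA1 interval was on the lower-coordinate side in 169 cases (49.3%, 43.9 to 54.7%), so neither side was preferred beyond the counting range. Another TAL1-only interval lay within 1000 bp of 24 adjacent intervals (7.00%, 4.53 to 10.2%), a share near that of TAL1-only intervals farther from GATA1 (6.10%, 4.95 to 7.41%). In 11 cases 2 adjacent intervals had the same GATA1 neighbour, and they lay on opposite sides of it in 1 case and on the same side in the other 10.

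Single positions show how these arrangements look. The 5 smallest gaps beside a neighbour in the TAL1 list were 37 to 39 bp. At 6q23.3, chr6:135512653-135512737 was 85 bp wide, the minimum, and lay 37 bp from a shared interval of 498 bp. At 5q31.1, chr5:134812676-134812767 was 92 bp wide and lay 37 bp from a shared interval of 226 bp. The one at 22q11.23, chr22:25123174-25123386, was 213 bp wide, with a shared neighbour of 238 bp across the same gap. At 19p13.12 the order of widths was reversed, since chr19:15001955-15002207 measured 253 bp and its shared neighbour, 38 bp away, 121 bp. The fifth, chr6:52932838-52932922 at 6p12.1, measured 85 bp and its neighbour 107 bp. Of these 5, 4 were narrower than the neighbour.

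Beside GATA1-only neighbours the 5 smallest gaps were 39 to 60 bp, and 3 of the 5 TAL1-only intervals were wider than the neighbour. At 4q32.2, chr4:164201904-164202312 was 409 bp wide and lay 47 bp from a GATA1-only interval of 184 bp. At 10q25.2, chr10:112533835-112534408 was 574 bp wide and lay 60 bp from one of 259 bp. At 5p15.2, chr5:10761323-10761497 measured 175 bp, its neighbour 105 bp and the gap 41 bp. The other two were at the minimum width of 85 bp: chr20:33753506-33753590 at 20q11.22, 39 bp from a neighbour of 242 bp, and chr6:126378276-126378360 at 6q22.32, 60 bp from one of 427 bp.

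The 5 widest adjacent TAL1-only intervals all had a neighbour with GATA1 alone that was narrower than they were. The widest, chr17:74733295-74734168 at 17q25.1, measured 874 bp, with a GATA1-only interval of 103 bp at a gap of 645 bp. Next came chr20:52550972-52551744 at 20q13.2 (773 bp, neighbour 100 bp, gap 260 bp) and chr19:48835854-48836603 at 19q13.33 (750 bp, neighbour 294 bp, gap 568 bp). They were followed by chr11:82867550-82868248 at 11q14.1 (699 bp, neighbour 85 bp, gap 129 bp) and chr22:38029659-38030312 at 22q13.1 (654 bp, neighbour 93 bp, gap 373 bp). These 5 were chosen for their own width, so a narrower neighbour follows largely from the choice. The TAL1 status of the neighbour was not used in it. Of all 34 adjacent intervals at least 400 bp wide, 14 had a TAL1 interval as neighbour (41.2%, 24.6 to 59.3%).

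The 5 widest GATA1 neighbours were all TAL1 intervals, as were 90 of the 96 neighbours at least 400 bp wide (93.8%). All 5 were wider than the adjacent interval, which again follows largely from the choice. At 3p25.3, chr3:9439087-9439315 measured 229 bp and lay 183 bp from a shared interval of 1076 bp. At 1p36.22, chr1:9970233-9970417 measured 185 bp and lay 54 bp from one of 917 bp. The intervals chr16:89059845-89060201 at 16q24.3 (357 bp) and chr7:104654021-104654223 at 7q22.3 (203 bp) lay 212 and 308 bp from shared intervals of 873 and 831 bp. The widest neighbour of all, 1162 bp, was at 6p11.1, a centromeric band, beside chr6:58777561-58778075 (515 bp, gap 41 bp). That site held 2 adjacent TAL1-only intervals between a GATA1-only and a shared interval within 2.76 kb. Centromeric bands held 3 of the 343 adjacent intervals (0.875%, 0.181 to 2.53%). They held 7 of the 1542 TAL1-only intervals farther from GATA1 (0.454%, 0.183 to 0.933%), and these ranges overlap.

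Among intervals with GATA1 on both sides, the smallest summed gap was that of chr8:82644173-82644721 at 8q21.13, 549 bp wide, with GATA1-only intervals of 203 and 230 bp at gaps of 256 and 239 bp. At 6p22.2, chr6:26296519-26296722 measured 204 bp and lay between shared intervals of 411 and 454 bp, at gaps of 69 and 504 bp. The region was rich in GATA1, with 17 further GATA1 intervals from 1 to 50 kb away. At 7p22.3, chr7:1895623-1895850 (228 bp) lay between a GATA1-only interval of 250 bp at 597 bp and a shared one of 545 bp at 70 bp. At 19p13.11, chr19:18485146-18485608 (463 bp) lay between shared intervals of 460 and 178 bp, at gaps of 96 and 647 bp. The interval at 20q11.22 named above was the other of these 5, with a second GATA1-only interval of 235 bp at a gap of 700 bp.

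**Figure D5:**
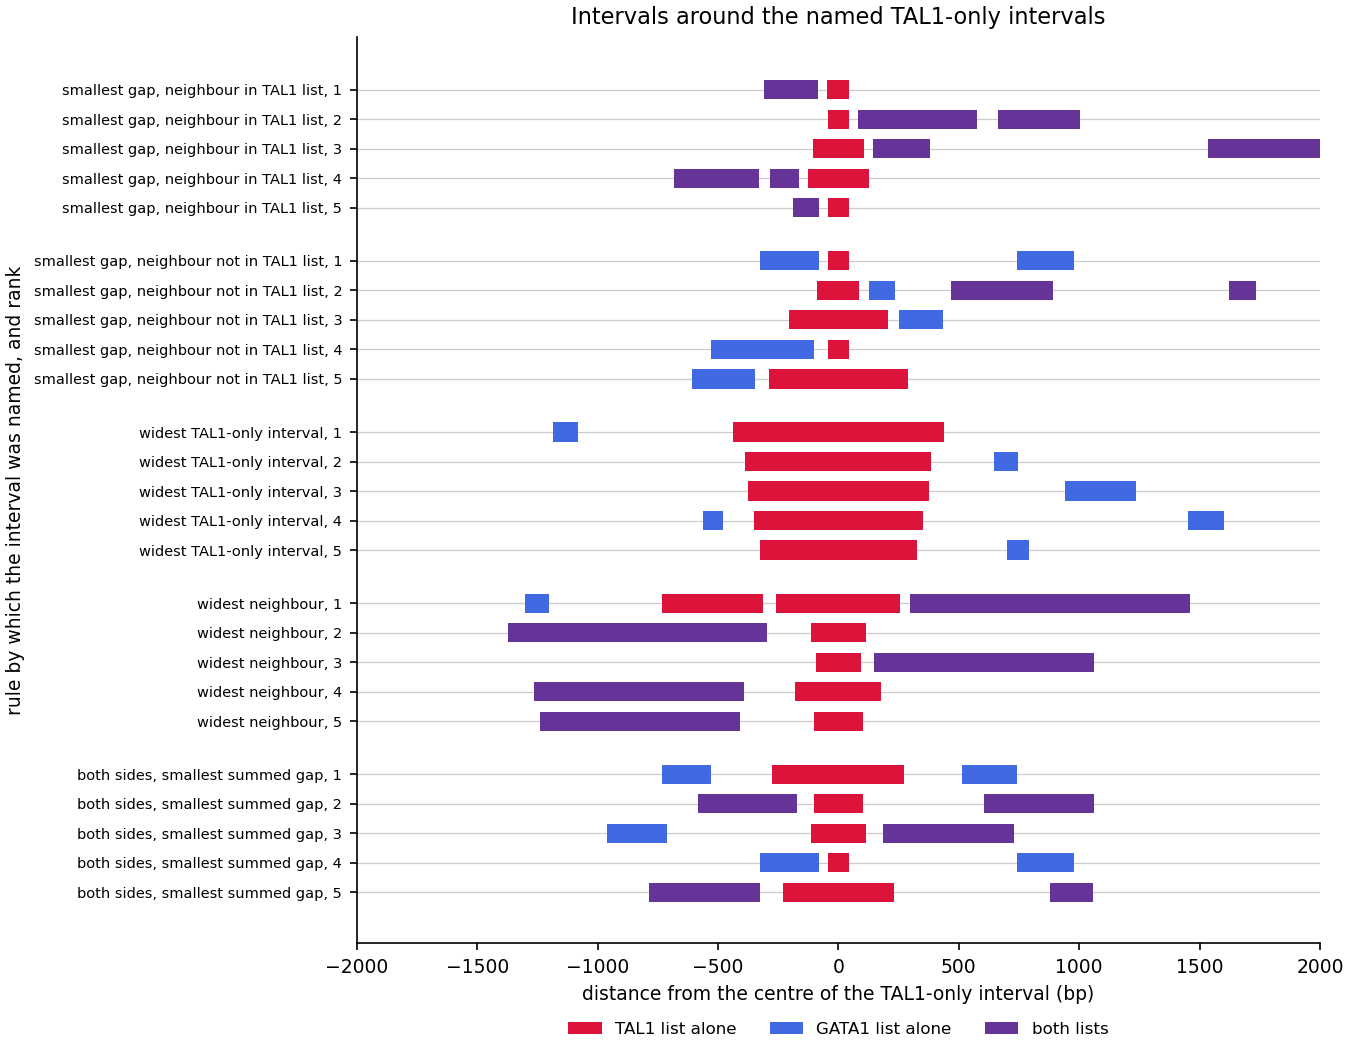
Intervals within 2000 bp of the centre of each named TAL1-only interval, 5 for each of 5 rules, with distance in bp on the horizontal axis and 1 row per interval; the interval at 20q11.22 appears under 2 rules and intervals are cut off at the edges. Red is TAL1 alone, blue GATA1 alone and purple both lists; the widest TAL1-only intervals have blue neighbours, and the widest neighbours are purple.

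Adjacent TAL1-only intervals were spread over the genome. Counted from 1 to 50 kb away, so that the neighbour itself is left out, there was a median of 2 GATA1 intervals (mean 3.01, at most 17). For TAL1-only intervals farther from GATA1 the median was 2 (mean 2.25), with 458 of them more than 50 kb from GATA1 and thus at 0. For shared intervals it was 3 (mean 3.32) and for GATA1-only intervals 2 (mean 3.11). They were found on 22 of the 23 chromosomes compared. Chromosome 4 had the highest share of its TAL1-only intervals adjacent to GATA1 (22 of 85, 25.9%, 17.0 to 36.5%), and chromosome 15 the lowest above 0 (5 of 62, 8.06%, 2.67 to 17.8%). The range of chromosome 4 includes the genome-wide 18.2%, and that of chromosome 15 ends just below it. Both were picked as the extremes of 23 chromosomes. Chromosome 21 had 0 of 24, which allows a share of up to 12.5% when taken as 3 counts of the total and of up to 14.2% by the exact interval. On the 12 chromosomes with at least 15 adjacent intervals, the neighbour was a TAL1 interval in 46.7% (chromosome 8, 7 of 15, 21.3 to 73.4%) to 87.5% (chromosome 7, 14 of 16, 61.7 to 98.4%) of cases.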

How the data were processed

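ChIP-seq of GATA1 and of TAL1 in control K562 cells was used, 1 library each. The authors' deposited lists hold 3 columns without a header, the chromosome, start and end of each interval, and no other unit. They hold 22769 GATA1 and 8918 TAL1 rows, of which 4 TAL1 rows on the mitochondrial sequence were left out. Trimmomatic, Bowtie2, MACS2, deepTools and hg19 are named per the submitters' processing notes, without versions or thresholds. It is unknown if intervals were called for each library or on pooled reads. Partial overlaps between the lists numbered 0, and over both lists together the smallest width was 85 bp and the smallest gap 37 bp. An origin of both lists in 1 common set of intervals was not tested. Positions are counted from 1.

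Overlap was at least 1 bp, and gaps are the bases between edges. Values were computed in Python 3.11.15 with numpy 2.4.6, pandas 2.3.3 and scipy 1.17.1, tested on simulated data and checked with bedtools 2.31.1, which gave the same 343 intervals. Bands came from circlize 0.4.16 and chromosome lengths from GenomeInfoDb 1.38.1. Figures used matplotlib 3.10.9. No test was made, since no antibody and condition had more than 1 library.

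Named were 5 intervals each by smallest gap (for both kinds of neighbour), own width, neighbour width and smallest summed gap on both sides, and 3 on each side of the limit. Other comparisons, width classes among them, were chosen after their values were seen. The intervals and rules were chosen with earlier results of these data known. Planned counts of motifs and genes were not made, because no hg19 sequence or annotation was used here. Alternatives changed the distance, its measure, the overlap, the minimum width and the unit counted.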

Additional observations from a re-analysis of the deposited data

How the results depend on the processing

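The values were recomputed under 7 other settings, of which the one that left out centromeric bands was chosen after seeing the data. The share of neighbours in the TAL1 list was 69.1% and ranged from 65.3% with a limit of 2000 bp to 72.7% with 500 bp. The share of pairs in which the TAL1-only interval was narrower was 64.7% and ranged from 61.1 to 68.1%. With a limit of 500 bp there were 238 intervals and a median gap of 222 bp, with 2000 bp 441 intervals and 453 bp, and with centres at most 1000 bp apart 289 intervals and 265 bp. A longer or shorter limit moves the gap by construction. With intervals under 150 bp left out of both lists, 198 intervals remained, against 343, with a median width of 246.5 bp against 204 bp, also by construction. An overlap of at least 50% changed no value, since overlapping intervals had the same boundaries. Joining intervals that lay together gave 331 sites. The share with GATA1 on both sides, a result added after seeing the data, was 3.21%, and 6.80% with 2000 bp or 0.420% with 500 bp. No paired analysis was possible because each antibody and condition has 1 library. Depth is unknown, so no limit of detection can be given.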

Other observations

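The reverse arrangement was GATA1 alone beside a TAL1 interval. Of 15740 GATA1-only intervals, 827 (5.25%, 4.91 to 5.61%) lay within 1000 bp of a TAL1 interval, and the nearest TAL1 interval was in the GATA1 list in 718 of these (86.8%, 84.3 to 89.1%), while 78.9% of all TAL1 intervals were in it. In the other 109 it was TAL1-only. Those 109 GATA1-only intervals had a median width of 214 bp (188 to 242 bp) and were narrower than the TAL1-only neighbour in 64 cases (58.7%, 48.9 to 68.1%). The TAL1-only interval in each of these pairs is by definition an adjacent one. These pairs therefore largely repeat those with a GATA1-only neighbour described above, seen from the other end.

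Among the 331 sites with an adjacent TAL1-only interval, the one with most intervals was at 1p33 (chr1:47644838-47647946). It held 2 TAL1-only intervals followed by 3 shared ones within 3.11 kb, and the adjacent one, chr1:47645996-47646134, measured 139 bp and lay 131 bp from a shared interval of 156 bp. It was singled out after its values were seen.

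Arms with at least 12 adjacent TAL1-only intervals numbered 11. On 2q the neighbour was a TAL1 interval in 13 of 13 cases (75.3 to 100%), on 1p in 20 of 24 (83.3%, 62.6 to 95.3%) and on 1q in 4 of 12 (33.3%, 9.92 to 65.1%). These arms were picked after the values were seen as the highest, another high one and the lowest, and their differences were not tested.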
